A study of Mus musculus with 4 samples.

Results

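The interval probes are oligonucleotides on an expression array whose target is given in the array files only as a stretch of mouse genome, such as chr8:26212577-26218527_R, with no gene name. They were chosen by their probe and target names, without regard to signal. Of 55681 non-control probes, 16181 were of this kind, and 15604 of these lay on the 19 autosomes and are described here. The other 577, on the X chromosome, were not analysed. The 15604 probes carried 4429 names (an interval and 1 of 2 letters, F or R) over 3387 intervals, which merged into 2123 separate loci. Interval lengths ran from 62 bp (chr10:83399729-83399790_F) to 7128487 bp (chr7:39351858-46480344_R), with a median of 7451 bp and quartiles of 794.5 and 21818 bp. Most names had several probes, of which 1726 had 3, 955 had 5 and 143 had 10, while 660 had 1. All coordinates are of build mm9. What the letters F and R stand for is not given in the sources used here, and no annotation of that build was used, so whether an interval overlaps a gene, exon or intron was not checked.

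Long intergenic RNAs are transcripts of RNA polymerase II that arise between protein-coding genes and carry no long open reading frame. Many are capped, spliced and polyadenylated like messenger RNA, but they are usually less abundant and more restricted to certain tissues. A few have well-studied roles, such as Xist in the silencing of the X chromosome, Malat1 and Neat1 in nuclear bodies and Meg3 and H19 at imprinted loci. In the spleen of a newborn mouse, which still makes red cells while it fills with lymphocytes, such RNAs can come from any of several cell types.

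The RNA was extracted from the spleens of ICR pups (an outbred stock) aged 5 days, born to dams given carbon black nanoparticles (CB-NP) or water by the nose. Dosing fell on gestational days 5 and 9, with CB-NP at 95 microg/kg or distilled water at 1 mL/kg on each occasion. RNA was pooled within each group, giving 4 pools, control and CB-NP males and control and CB-NP females, each read on 1 array. How many animals or litters each pool held is not given in the sources used here. With 1 array a group there is no replicate, no difference within a sex can be tested, and differences between pools, litters and exposure cannot be told apart. In bulk tissue, fewer cells of a type and less RNA per cell cannot be told apart either. All 4 arrays shared 1 slide.

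Values are log2 processed signals minus the 75th percentile of each array, which was 335 and 340 in control and CB-NP males and 392 and 317 in control and CB-NP females. A difference is CB-NP minus control on this scale. Its scanner error is the error the reading software gave each spot, propagated over both, and covers neither animals nor pools. The brightest probes named below all had the same value, 0.204, so for these it does not tell probes apart. The labelled sex held, since the 5 probes named XIST had median signals of 7.08 and 4.59 in males and 4580 and 4570 in females. All 4 spleen stroma markers listed were well above background on every array, as were all 8 erythroid, 5 B cell, 5 T cell and 6 splenic macrophage markers. Of the other lists, some differed with exposure in both sexes and some did not. The summed signal of 6 eosinophil markers, in multiples of the 75th percentile, was 31.8 in male control and 8.89 in male CB-NP, and 62.3 and 17.2 in females. That of 19 pancreatic acinar markers was 24.4 and 2.14 in males and 20.8 and 2.18 in females, with 17 well above background in each control and 8 in each CB-NP pool. B cell markers summed to 54.8 and 93.2 in males and 52.1 and 86.9 in females. T cell markers summed to 18.1 and 17.9 in males and 17.6 and 23.6 in females. The 6 neutrophil markers summed to 1193 and 1235 in males and 1266 and 1057 in females. All 6 were lower with CB-NP in females (median -0.58), and 5 were higher in female than in male control (median 0.31). The 6 pancreatic islet markers summed to 2.93 and 0.173 in males and 0.418 and 0.639 in females. Of these 6, 4 and 1 were well above background in control and CB-NP males, and 2 and 2 in females. The part of these cell types in the interval results was not tested.

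Fewer interval probes than gene probes gave a signal, and those that did were dim. On all 4 arrays, 5479 of 15604 interval probes (35.1%) were well above background, compared with 68.5% of 26430 RefSeq mRNA probes, 47.1% of 886 RefSeq noncoding RNA probes and 53.4% of all probes. On no array were 52.7% of interval probes well above background, against 25.6% of mRNA probes. The share was alike on each array, at 40.8% and 41.7% in control and CB-NP males and 40.4% and 39.1% in control and CB-NP females. On the same arrays it was 71.2%, 71.7%, 71.3% and 70.4% for mRNA probes and 50.7%, 51.8%, 50.6% and 50.3% for RefSeq noncoding RNA probes. Among probes detected on all 4 arrays, the median interval signal was 57.1, 56.2, 61.2 and 54.5 in the same order, and the median mRNA signal was 434, 444, 516 and 409. As centred levels these are -2.55, -2.60, -2.68 and -2.54 for interval probes and 0.37, 0.39, 0.40 and 0.37 for mRNA probes. Probes bind with their own strength, so a gap between classes is one of probe signal and not of RNA amount, and the centring brings the pools' levels together.

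Detection varied with the interval's length and place. Of probes to intervals up to 500 bp, 26.9% were well above background on all 4 arrays, compared with 47.1% for intervals over 1000 and up to 2000 bp and 28.6% for those over 100000 bp. By chromosome the share ran from 27.4% on chromosome 10 to 42.9% on chromosome 5. Names ending in R were detected slightly more often (37.9% of 7714 probes) than names ending in F (32.3% of 7890). Of the 4429 names, 2555 had at least 1 probe well above background on all 4 arrays and 1874 had none. Detection was seldom shared by all probes of a name. Among 3258 names with 3 or more probes, every probe was detected for 471, no probe for 1243 and some probes for 1544.

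A small number of interval probes were among the brightest on the arrays. The brightest, in chr17:17481706-17482457_R, gave 158000 and 155000 in control and CB-NP males and 174000 and 149000 in control and CB-NP females. A probe in chr11:22681800-22707775_R gave 155000, 150000, 168000 and 133000, and 1 in chr14:78924115-78938125_F gave 133000, 128000, 143000 and 122000. These signals kept the same order in every pool, and the centred differences were at most 0.08 in size in both sexes. In chr14:78924115-78938125_F the bright probe stood alone: only 3 of 7 probes were detected on all 4 arrays, and their levels spanned 12.5 log2 units. Across the 815 names with 3 or more probes detected on all 4 arrays, the levels within a name spanned a median of 1.86 log2 units. Probes of 1 name share a locus but not a binding strength, so such spans describe signals, and changes are read only from the same probe on different arrays.

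Where an interval carried both letters, detection often differed between them. Of 1042 such intervals, 469 (45.0%) had probes well above background on all 4 arrays under both letters, 195 under F alone, 217 under R alone and 161 (15.5%) under neither. In the 469 the median level of F probes and that of R probes lay 1.45 log2 units apart at the median. That gap is between different probes, and does not show that 1 letter's RNA is the more abundant. At chr9:14460976-14488051 the 5 F probes had median signals of 4890 and 4530 in control and CB-NP males and 6210 and 4210 in control and CB-NP females, and the 3 R probes had 30.2, 27, 34 and 28.2. At chr4:136856064-136877219 the 5 R probes gave 5870, 5840, 7160 and 5150 and the 3 F probes 37.4, 56.6, 34.7 and 56.1. At chr17:39960567-39992817 the signals were 10950, 13090, 11640 and 12580 for F and 6500, 8430, 7370 and 7630 for R. Differences with exposure were only loosely shared between the letters of an interval, with r = 0.16 in males and 0.12 in females across the 469 intervals, which share arrays and centring.

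In males, few interval probes differed between CB-NP and control. Of 5949 well above background on both arrays, 41 were higher by 2-fold or more and 47 lower, where 1.14% of all 30866 probes compared differed that much either way (0.528% higher and 0.616% lower). As shares of the interval probes these counts are 0.689% and 0.790%. The split was 52 and 36 on the authors' scaling and 50 and 38 when arrays were centred on the interval probes. Over all 30866 probes it was 206 and 159, and 194 and 163. The median difference was -0.06, against -0.04 for all probes, and the median scanner error of an interval probe was 0.22. The largest difference that also passed 2-fold with another background correction (normexp) was in chr1:183832694-183834125_R. Its probe gave 23.5 and 165 in control and CB-NP males and 31.5 and 39.2 in control and CB-NP females, so that the male CB-NP array alone stood high (log2 difference 2.79, scanner error 0.26). The 2 other probes of that name differed by a median of 0.25. The second was in chr19:5771425-5848475_F, with 67.9, 237, 70.7 and 61.6 (1.78, scanner error 0.21). There the 8 other probes detected differed by a median of -0.03. No lower probe in males passed 2-fold under both corrections.

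Other probes of the name were compared for 31 of the 41 higher probes and 28 of the 47 lower. The median of those others lay on the same side of 0 for 17 and 23, and reached 0.5 in that direction for 5 and 8. Among further large differences, in chr12:20240893-20435318_R a probe gave 11.9 and 60.2 in males and 19.7 and 16.8 in females, with male CB-NP alone high. In chr7:88668948-88678046_F a probe gave 52.6 and 12.9 in males and 10.4 and 20.4 in females, with male control alone high. Its female control signal was not well above background, and the 1 other probe of that name compared in males was higher (0.87). In chr1:134167181-134181386_F the signals were 123 and 41.7 in males and 47.6 and 40.7 in females, with male control again alone high. None of these further differences stayed 2-fold with normexp.

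In females, interval probes were more often higher than lower with CB-NP. Of 5682 compared, 112 were higher by 2-fold or more and 17 lower, where 1.49% of all 30289 probes compared differed that much either way (1.09% higher and 0.406% lower). As shares of the interval probes these counts are 1.97% and 0.299%. The median difference of interval probes was 0.12, with 64.8% above 0, while it was -0.05 for RefSeq mRNA probes, with 43.0% above 0. The split between higher and lower depended on the scaling. It was 68 and 31 with quantile normalization or cyclic loess and 65 and 34 with median centring. With arrays centred on the interval probes it was 55 and 38, and on the authors' scaling 175 and 11. Over all 30289 probes it was 230 and 168 with quantile normalization, 237 and 167 with cyclic loess and 212 and 190 with median centring. There interval centring gave 193 and 205 and the authors' scaling 518 and 94. Interval probes lay 0.13 above the median of all probes, a gap that a constant per array cannot change, and 0.06 above it under quantile normalization. Median centring moved the median of all probes from -0.01 to -0.12.

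Interval probes also differed between the control pools. Between the control pools, female minus male, interval probes had a median difference of -0.12 and mRNA probes of 0.01. Of 5848 interval probes compared there, 17 were higher by 2-fold or more and 60 lower, where 0.896% of all probes differed that much (0.267% higher and 0.629% lower). These counts became 23 and 41 with quantile normalization and 26 and 36 when centred on interval probes. Over all probes they were 119 and 131, and 133 and 113. Between the CB-NP pools, female minus male, interval probes had a median of 0.05 and mRNA probes of -0.02. Of 5788 interval probes compared there, 43 were higher by 2-fold or more and 19 lower, where 0.801% of all probes differed that much (0.496% higher and 0.305% lower). The female control array serves both the female pair and the control pair, so these are not separate measurements. Similar medians were found at like brightness. For probes with mean levels between -2 and -1, the female difference had a median of 0.13 in 809 interval probes and 0.01 in 1929 mRNA probes, and the control difference had medians of -0.14 and 0.00. Over the 7 bands of level, from under -4 to over 2, the female medians ran from 0.19 down to -0.00 for interval probes and from 0.14 down to -0.11 for mRNA probes, the interval median being the higher in each band. The male medians of interval probes lay between -0.08 and -0.04 in every band. At like brightness the pattern was not particular to interval probes. Of the 12114 probes of no named class, 629 detected on all 4 arrays had mean levels between -2 and -1. Their female median was 0.12 and their control median -0.11. Over all compared probes of that class the medians were 0.02 and -0.05.

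Other probes of the name were compared for 85 of the 112 higher probes in females and for 11 of the 17 lower. Their median lay on the same side of 0 for 74 and 4, and reached 0.5 in that direction for 41 and 1. In chr5:31856417-31916317_F a probe gave 81 and 69.3 in male control and CB-NP, and 31.2 and 102 in female control and CB-NP. The female control was the lowest and the female CB-NP the highest of the 4 (log2 difference 2.02, scanner error 0.24), and 3 other probes of that name had a median difference of 0.91. In chr5:122982442-123000053_F a brighter probe gave 388 and 693 in males and 388 and 776 in females, so that both CB-NP arrays lay above both control arrays (0.82 in males and 1.31 in females, scanner error 0.20 each). It was the only probe of its 5 that was detected on all 4 arrays. These 2 were the probes at least 2-fold higher under both background corrections, and no lower probe was. The lowest, in chr13:53100475-53113850_F, gave 40.5 and 32.8 in males and 110 and 23.9 in females, with female control alone high.

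Probes detected on only 1 array of a pair have a bound in place of a difference, computed against the lowest signal called well above background on the other array. In males 564 interval probes (3.61%) were detected with CB-NP alone and 424 (2.72%) in control alone, where 1430 (2.57%) and 1092 (1.96%) of all probes were. The bound was at least 2-fold for 114 of the 564 and 101 of the 424. The largest bounds were at least 14.8-fold higher in chr12:111079867-111080561_R (3.26 and 106) and at least 8.24-fold lower in chr2:175543425-175603300_F (69.6 and 5.43). In females 422 (2.70%) were detected with CB-NP alone and 627 (4.02%) in control alone, where 992 (1.78%) and 1629 (2.93%) of all probes were, the same tilt. Detection is called on each array before centring, and the 75th percentile was 392 in female control and 317 with CB-NP. By size the tilt ran the other way, with a bound of at least 2-fold for 113 of the 422 and 56 of the 627. Bounds over all probes are not given here. In females the largest bounds were at least 12.6-fold higher in chr1:6181200-6204300_F (9.25 and 104) and at least 10.3-fold lower in chr1:141070245-141076841_R (125 and 2.22). None of these 4 probes was well above background on a second array, in either sex.

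Differences in the 2 sexes, which share no array, coincided in few interval probes. Of 5479 detected on all 4 arrays, 1 (0.0183%) was at least 2-fold higher in both pairs and 2 (0.0365%) were lower by as much in both, where 0.0437% and 0.128% of all 29739 probes did so. These 3 and the 1 below were named after their values were seen, because none passed 2-fold with normexp as well. The higher was in chr16:3337275-3355950_F, with 18.1 and 54.8 in males and 16.1 and 29.1 in females (1.58 and 1.16). The first lower was in chr8:122807653-122823000_F, with 256 and 118 in males and 260 and 87.2 in females (-1.14 and -1.27). For it both control arrays lay above both CB-NP arrays, while the 3 other probes of that name had median differences of -0.24 and 0.03. The second lower was in chr12:110944403-110988678_F, with 163 and 73 in males and 146 and 57.7 in females (-1.18 and -1.03), and its 3 other probes had medians of -0.16 and 0.45. At least 2-fold lower in males and higher in females was 1 probe (0.0183%, against 0.0168% of all probes), in chr5:31856417-31916414_F. Its signals were 31 and 12.3 in males and 13.3 and 24.4 in females. None was the other way round, where 0.00336% of all probes were. Across the 5479 probes the male and female differences correlated with r = 0.24, and across 18099 mRNA probes with r = 0.42, all 4 arrays sharing a slide and a centring.

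The only test the design allows takes treatment and sex together over the 4 arrays, with 1 residual degree of freedom per probe. Fitted with limma over 32170 probes, it called none at a Benjamini-Hochberg adjusted p of 0.05, among interval probes (6452 tested) or others. The smallest adjusted p of an interval probe in limma was 0.24. At an unadjusted p under 0.05 there were 819 interval probes (12.7%), 521 higher and 298 lower with CB-NP, where 10.4% of all probes were so. In simulated data the same limma fit recovered 0 of 50 probes changed 2-fold, 2 of 50 changed 4-fold and 42 of 50 changed 16-fold, so a count of 0 says little about smaller differences. With median centring limma called 208 interval probes higher and 147 lower, with normexp 64 and 23, and with an intensity trend 22 and 17. Over all 32170 probes, interval probes included, these settings called 658 and 533, 471 and 270, and 269 and 205.

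Intervals were also compared by the median over their probes. This step was added after values had been seen. It used the 815 names with 3 or more probes detected on all 4 arrays, 3203 probes in 554 loci, and a median difference of at least 0.5 (1.41-fold). Probes of a name read the same RNA pools and are not replicates. The differences of 1 name's probes spanned a median of 0.36 in males and 0.45 in females. In males 21 names were higher (2.58%) and 20 lower (2.45%), compared with 0.888% and 0.178% of 563 RefSeq genes with as many probes. In females 103 were higher (12.6%) and 7 lower (0.859%), against 2.31% and 0.533% of RefSeq genes. In both pairs 12 were higher (1.47%) and 0 lower, against 0.533% and 0 of RefSeq genes. Male and female medians correlated with r = 0.35 across the 815 names, many of which overlap. Of the male medians 43.2% were above 0, and of the female medians 68.3%. Every probe of a name was above 0 in both pairs in 110 names (13.5%, against 8.35% of RefSeq genes) and below 0 in both in 39 (4.79%, against 17.8%). Every probe was below 0 in males and above 0 in females in 52 (6.38%, against 1.95%), and the reverse in 9 (1.1%, against 1.6%). These counts move with the centring, and interval probes as a whole sat above 0 in females. The RefSeq genes were not matched to the names in brightness, and detected interval probes were dimmer than mRNA probes.

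The 12 names that were higher in both pairs are separate places on 10 chromosomes. All 5 probes of chr8:26212577-26218527_R were higher in both sexes. Their median signal was 140 and 278 in control and CB-NP males and 175 and 260 in control and CB-NP females, and both CB-NP arrays lay above both controls. The median differences were 0.90 in males (probes from 0.29 to 0.97) and 0.88 in females (0.68 to 1.15), with a scanner error of 0.21 for a single probe. The 2 detected F probes of that interval did not follow, with 0.52 and -0.27 in males and 0.19 and -0.48 in females. In chr1:85304494-85305390_R 3 probes had median signals of 24.6 and 61.4 in males and 47.6 and 66.7 in females. Male control was lowest there, and the differences were 1.30 (1.23 to 1.37) and 0.85 (0.52 to 0.86). In chr16:34524589-34573439_R all 5 probes were higher, with median signals of 66.7 and 101 in males and 70.7 and 114 in females (0.60 and 0.88).

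The brightest of the 12 was chr8:19792940-19798868_F. Its 3 probes had median signals of 4140 and 6030 in control and CB-NP males and 3920 and 5340 in control and CB-NP females, so both CB-NP arrays were above both controls. The differences were 0.53 in males (0.52 to 0.58) and 0.78 in females (0.75 to 0.89), and at this brightness normexp left them at 0.50 and 0.69. It lies inside chr8:19678750-20038750, a 360001 bp interval that holds 3 more of the 815 names. All 5 names at that locus had medians above 0 in both sexes, from 0.19 to 0.53 in males and from 0.52 to 0.92 in females. At chr8:19887285-19889397_R, for example, the median signals were 128 and 181 in males and 97.3 and 149 in females.

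The other 8 names higher in both pairs were dimmer. In chr17:3346621-3347209_F the median signals were 33.1 and 58.7 in males and 58.7 and 62.8 in females, with differences of 0.82 and 0.61. In chr16:84702353-84710928_R they were 21.3 and 38.3 in males and 32 and 38.3 in females (0.81 and 0.75). For both, male control stood lowest and the other 3 arrays lay closer together. In chr6:31115515-31168433_R they were 41.6 and 64 in males and 32.6 and 62.5 in females, the largest female difference of any name (0.60 and 1.25). Its 3 probes ran from -0.004 to 0.66 in males and from 1.15 to 1.71 in females. In chr3:96074625-96086375_F all 5 probes were higher, with 119 and 175 in males and 166 and 187 in females (0.54 and 0.56). The remaining 4, chr19:21653968-21671718_R, chr10:93774693-93893616_F, chr5:111538420-111540142_F and chr14:106562325-106660675_F, had male medians from 0.51 to 0.69 and female medians from 0.57 to 0.87. Under normexp 1 of the 12 kept a median of at least 0.5 in both pairs. Beside these differences stand those of the B cell markers, all 5 of which were higher in both sexes (medians 0.71 and 0.77).

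No name reached a median of -0.5 in both pairs, and the nearest was chr8:59994074-60002058_F. All 5 of its probes were lower in both sexes. The median signals were 102 and 49.7 in control and CB-NP males and 105 and 63.4 in control and CB-NP females, with both controls above both CB-NP arrays. The differences were -1.16 in males (lowest probe -1.24) and -0.49 in females (-0.68 to -0.42). In chr17:87674225-87682154_R 4 probes had medians of 42.05 and 29.8 in males and 62.35 and 30.8 in females (-0.51 and -0.48). In chr3:40439525-40509975_F 4 probes had 112 and 75.7 in males and 128 and 82.5 in females (-0.68 and -0.31). In chr15:8463685-8494960_R 3 probes had 93.1 and 81.5 in males and 165 and 80.7 in females (-0.33 and -0.78), with female control alone high. Beside these stand the eosinophil markers, all 6 of which were lower by more than 2-fold in each sex, and the acinar markers, 6 of 8 of which were so in each sex.

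Some names differed with exposure in 1 sex alone. On chromosome 3, 3 overlapping R names within chr3:126989696-127201919 were lower in males and slightly higher in females. For chr3:127039311-127201919_R the median signals were 160 and 96.2 in males and 117 and 117 in females (-0.76 and 0.29). For chr3:126989696-127112471_R all 9 probes were detected, with medians of 87.5 and 53 in males and 81.4 and 67.1 in females (-0.62 and 0.19). Female control was lower than male control at all 3 after centring, by 0.30 to 0.66. In chr11:95644899-95658549_R the 2 female arrays stood above the 2 male arrays, with 443 and 292.5 in males and 931 and 880.5 in females (-0.62 and 0.26). In females alone, chr14:33901152-33976129_R had 19 and 28.3, with 34.9 and 34 in males, and its 3 probes differed by 0.88 to 1.40 in females. There the female control was the lowest of the 4 pools. Whether any of these differences differs between the sexes could not be tested.

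Of 182 loci that held more than 1 of the 815 names, all names were above 0 in 39 in males and below 0 in 70, and 73 had names both ways. In females these counts were 95, 26 and 61. Names of a locus overlap and read the same pools. At chr17:39960567-39992817 the F name differed by 0.18 in males and 0.43 in females and the R name by 0.35 and 0.38. Inside it, chr17:39980973-39981876_R had median signals of 2710 and 3330 in males and 2990 and 3290 in females (0.28 and 0.44). All 5 names there had medians above 0 in both sexes, the least in chr17:39983902-39985688_F (0.02 and 0.17). Without an annotation, what kind of RNA the probes at this locus read was not checked.

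On chromosome 19, 5 names within chr19:5771425-5848475 had medians from -0.14 to 0.25 in males and from 0.06 to 0.50 in females. In chr19:5801802-5802597_R the median signals were 19900 and 21700 in males and 21300 and 25300 in females (0.08 and 0.42). In chr19:5798135-5800557_R they were 5950 and 5630 in males and 5750 and 6500 in females (-0.10 and 0.48), with the female CB-NP pool the highest of the 4 in both names. In chr19:5834117-5835940_R they were 138 and 167 in males and 113 and 163 in females (0.25 and 0.50). The name of the whole stretch, chr19:5771425-5848475_F, differed by 0.04 and 0.06 over 9 probes. On chromosome 1, 2 names at lower coordinates than chr1:85304494-85305390_R were higher in females alone. These were chr1:85117750-85129200_F (0.12 in males and 0.92 in females) and chr1:85156338-85167730_R (-0.05 and 0.97).

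For 10 names all 10 probes were detected, and their medians ran from -0.22 to 0.32 in males and from -0.11 to 0.47 in females. The highest in females was chr6:116092274-116144199_R, with 203.5 and 204.5 in males and 192 and 220 in females (0.11 and 0.47), where all 10 probes were above 0 in females. The highest in males was chr3:84609788-84618062_R, with 19.9 and 24.25 in males and 33.15 and 20.85 in females (0.32 and -0.11). In chr5:74487385-74497428_F the median signals were 1325 and 1340 in males and 1525 and 1217.5 in females, with differences of 0.00 and -0.03. In chr17:26911397-26917047_F the 10 probes gave 430.5 and 453 in males and 507.5 and 437 in females (-0.05 and 0.07). In chr4:129497990-129515290_F the 10 probes gave 281 and 312 in males and 336.5 and 314 in females (0.19 and 0.23), all 10 being above 0 in males.

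Named long noncoding RNA genes were measured by other probes. Of 73 genes listed, 37 had a probe matched by RefSeq accession. In males 31 were compared, with a median difference of -0.06 and 12 above 0, and in females 32, with a median of 0.21 and 21 above 0. None was 2-fold different in either sex. Malat1, a nuclear speckle RNA, gave 2920 and 1830 in males and 2460 and 2270 in females (-0.70 and 0.19). The 3 probes labelled NEAT2, another name of the same RNA, had medians of -0.57 and 0.00, also lower in males alone. Whether any interval probe reads this RNA too, and with what difference, was not checked. Neat1, which builds paraspeckles, gave 5310 and 5450 in males and 6480 and 6680 in females (0.02 and 0.35). Of imprinted RNAs, Meg3 had differences of 0.14 and 0.66, Kcnq1ot1 0.27 and 0.63 and Airn -0.03 and 0.66. A second Airn probe differed by -0.34 and -0.28. The 2 other Meg3 probes ran from -0.31 to 0.10 in males and from 0.28 to 0.92 in females. A second Kcnq1ot1 probe differed by 0.37 and 0.47, while 5 probes labelled KCNQ1ot1 had medians of -0.46 and 0.05. Of those 5, 1 was detected on all 4 arrays. The 5 probes for H19 had medians of 0.07 and 0.16. As for the interval probes, the list's median was higher in the female pair than in the male pair, and its female control minus male control median was -0.09.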

How the data were processed

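Spleen RNA pools of 4 groups were measured on 4 one-colour arrays of build mm9. Per the file headers, the reading software was Feature Extraction 10.10.1.1. The deposited processed signal is an intensity, background-subtracted within each array and not normalized between arrays, per the file headers. Other deposited values used were flags for spots well above background or outlying, the propagated signal error, and the authors' value table, an intensity equal to the processed signal times a constant per array. Median-pixel signals were used for normexp, since the files give these. Each interval probe had 1 spot, and values flagged as outliers were left out. A probe was compared within a pair when well above background on both arrays. The number of arrays, 1 a group, limits the precision. Depth per array was 33973 to 34996 spots well above background of 59305.

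The members, lists and thresholds were chosen with earlier results of these data known. Probes named were the brightest, those at least 2-fold with normexp (offset 50) too, the largest bounds, probes 2-fold in both pairs, and intervals by number of probes. Names judged by the median of 3 or more probes were added later. Some of the highest and lowest single probes in each sex, not 2-fold with normexp, were also added. The limma model (version 3.58.1, R 4.3.3) took treatment and sex over probes well above background on at least 2 arrays, and was tested on simulated data. RefSeq names came from a table matched to 26762 probes by accession. Alternatives were normexp, quantile, cyclic loess, median centring, the authors' scaling, other filters and thresholds. Probe sequences were not used here.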

Additional observations from a re-analysis of the deposited data

Results flagged for a closer look

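In 2 interval names every probe detected on all 4 arrays was higher with CB-NP in males and lower in females. The median was at least 0.5 each way. In chr17:38132217-38157667_F the median signals were 61 and 102 in males and 115 and 51.7 in females, with differences of 0.61 and -0.85. Male control and female CB-NP were low and the other 2 arrays high. Of its 8 probes, 3 were detected on all 4 arrays and 3 more on at least 1. These medians rest on the first 3 alone. In chr6:122341396-122342710_F the 3 probes had medians of 37.9 and 50.9 in males and 54.6 and 26.8 in females, with differences of 0.59 and -0.64. The single probe in chr5:31856417-31916414_F described above had -1.35 in males and 1.18 in females. Among interval names every probe was above 0 in males and below 0 in females in 1.1% and the reverse in 6.38%, where RefSeq genes gave 1.6% and 1.95%. The median over all autosomal interval probes was -0.0606 in males and 0.12 in females. With 1 array a group, none of these differences between the sexes was tested.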

How the results depend on the processing

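Counts in males stayed within 1.5 times under quantile normalization, cyclic loess, median centring, the authors' scaling, centring on interval probes (chosen after seeing the data), outlier spots kept and probes detected on all 4 arrays. Normexp, which lifts dim probes toward a common offset, gave 2 higher and 0 lower in each sex, and 0 and 0 between controls. Over all probes it gave 23 and 35 in males, 36 and 45 in females and 16 and 11 between controls. Without a detection filter the counts were 699 and 961 in males, 1075 and 580 in females and 607 and 986 between controls. Over all probes these were 1754 and 2535, 2685 and 1574, and 1552 and 2479. At 1.5-fold the counts were 213 and 327 in males and 653 and 163 in females. Over all probes these were 926 and 959, and 2052 and 834. In females quantile normalization and cyclic loess gave 68 and 31, median centring 65 and 34, the authors' scaling 175 and 11 and interval centring 55 and 38. In males the split was 52 and 36 on the authors' scaling and 50 and 38 with interval centring. Between controls quantile normalization and cyclic loess gave 23 and 41, median centring 24 and 38 and interval centring 26 and 36. Over all probes these 4 settings gave 119 and 131, 118 and 132, 129 and 118, and 133 and 113 between controls. The splits over all probes in males and females are given above. In both pairs together, normexp left 0 higher, 0 lower and 0 opposite. Quantile, loess, median and interval centring each gave 3 higher, and the authors' scaling 4 higher and 1 lower. Limma called 208 and 147 interval probes with median centring, 64 and 23 with normexp and 22 and 17 with an intensity trend, and 0 under the other settings. Over all 32170 probes the 3 settings called 658 and 533, 471 and 270, and 269 and 205. With the positive-and-significant flag, 8361 probes were detected on all 4 arrays in place of 5479. Normexp lowered the range within a name to 0.20 in males and 0.24 in females, and the gap between letters to 0.73. Names higher in both pairs numbered 1 with normexp and 48 at a threshold of 0.3, where 7 were lower. Quantile, loess, median and interval centring each gave 1 lower. Of 653 recomputed values of single names and probes, 0 of those called changed sign. Moves larger than the scanner error numbered 78, all under normexp. A change of sign was counted only for name medians of at least 0.5 and probe differences of at least 2-fold. Median centring, the authors' scaling and interval centring shift a pair by a smaller constant, so they could not reverse one. The causes were not tested. No paired analysis was possible because the groups share fewer than 2 replicate numbers, though the limma fit has sex as a term.

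Dim signal limits what can be read: 52.7% of interval probes were above background on no array, and where 1 array of a pair lacked signal there is only a bound.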
